A study of Mus musculus with 4 samples.

Results

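Ccl2, Ccl7, Cxcl16 and Pf4 are chemokine genes whose proteins attract monocytes, T cells and other leukocytes and do not act through Cxcr2. They were taken from the deposited expression table by gene name, which gave 4 of its 2979 genes. RNA sequencing was done on lung fibroblasts freshly taken from wild-type BALB/c mice 4 weeks of age. The control group was 2 libraries of fibroblasts without added chemokine, and the chemokine group was 2 libraries of fibroblasts given recombinant human CXCL1 (8 nM), CXCL2 (2 nM) and CXCL8 (20 nM) together for 3 hours. Both groups shared strain, genotype, tissue and age, and each library is named here by its group and the number its label carries (control 1, chemokine 2 and so on). Nothing in the labels says whether replicates came from separate animals or cultures, so p-values measure only the spread between these libraries, which may be technical. Values are RPKM, reads scaled by gene length and library total, and the totals implied by the values were between 28603764 and 36863654 reads per library.

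Chemokines are small secreted proteins that bind G protein-coupled receptors on leukocytes and guide them along a gradient held on heparan sulfate. Ccl2 (monocyte chemoattractant protein) acts through Ccr2 and draws monocytes out of the bone marrow and into inflamed tissue, and Ccl7, its close relative, acts through Ccr2 and other CC receptors. Cxcl16 is made as a membrane protein whose chemokine domain can be shed, and its receptor Cxcr6 is carried by T cells and natural killer T cells. Pf4, platelet factor 4, is stored in platelet granules, binds heparin and is also made by some macrophages. The chemokines added in the experiment, by contrast, carry the ELR motif before their cysteine pair and attract neutrophils through Cxcr2.

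The coding sequence round the cysteine pair that gives each chemokine class its name is shown because it separates the 4 genes from the Cxcr2 ligands. Each line is 39 bases of the GENCODE M21 transcript, 5′ to 3′, with the first pair of cysteine codons in capitals. The last line is mouse Cxcl1, a Cxcr2 ligand, for comparison.
Ccl2: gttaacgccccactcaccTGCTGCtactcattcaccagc
Ccl7: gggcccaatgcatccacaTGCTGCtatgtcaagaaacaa
Cxcl16: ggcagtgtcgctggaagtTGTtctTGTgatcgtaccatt
Pf4: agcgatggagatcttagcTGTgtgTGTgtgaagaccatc
Cxcl1: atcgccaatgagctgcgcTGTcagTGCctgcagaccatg
In Ccl2 and Ccl7 the cysteine codons are adjacent, at codons 34 and 35 and at codons 33 and 34. In Cxcl16 (codons 35 and 37) and Pf4 (codons 44 and 46) 1 codon lies between them. The ELR motif precedes the pair in Cxcl1, Cxcl2 and Cxcl5 and is not found there in any of the 4 genes.

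In the reference build GRCm38, 3 of the 4 genes lie on chromosome 11. Ccl2 (ENSMUSG00000035385, chr11:82035571-82037453) and Ccl7 (ENSMUSG00000035373, chr11:82045712-82047525) are both on the plus strand with 8258 bases between them, and each has 3 exons in its coding transcript. Cxcl16 (ENSMUSG00000018920, chr11:70453983-70459984) is on the minus strand with 5 exons in its longest coding transcript. Pf4 (ENSMUSG00000029373, chr5:90772435-90773383) has 3 exons on the plus strand of chromosome 5, within 1000000 bases of Cxcl5, Cxcl1 and Cxcl2. Transcripts of Ccl2, Ccl7 and Pf4 shared none of their 31-base words with transcripts of any other annotated gene. Cxcl16 shared 552 exon bases, 18.3% of its exon length, with the opposite-strand gene Zmynd15, and since no strand setting is given in the sources used here its value is uncertain to that extent.

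Every library had the same order of levels per length, with Pf4 highest, then Ccl2, Ccl7 and Cxcl16. Between neighbours in that order no library of the lower gene reached any library of the higher gene within the same group. In the control libraries Pf4 and Ccl2 stood above 96.6% and 95.3% of the other listed genes, Ccl7 above 89.7%, and Cxcl16 above 34.4%. The 4 mRNAs were all present without added chemokine, 3 of them among the more abundant of the list.

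After chemokine exposure all 4 were higher, Ccl2 and Ccl7 by the most and Cxcl16 and Pf4 by less. The authors' deposited table gives folds of 1.47 for Ccl2, 1.44 for Ccl7, 1.25 for Cxcl16 and 1.22 for Pf4. Their median in the authors' deposited table was 1.35, against 0.842 over all 2979 listed genes. On the log2(RPKM + 1) scale the median change of the 4 genes was 0.40, against -0.23 over the 2956 genes tested, those with a mean of at least 1 RPKM. By limma, 4 of the 4 passed upward at an adjusted p under 0.05, but 42.8% of all tested genes also did, and 100% passed in one direction or the other. In none of the 2979 genes do the groups overlap, and 42.4% are higher without overlap in the chemokine libraries. The deposited genes are a selected list, and a test on them is not independent of that selection.

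Ccl2, the monocyte attractant, had 261.3 and 241 RPKM in control 1 and 2 and 355 and 385 RPKM in chemokine 1 and 2. Both chemokine libraries were well above both controls. The gap between the groups, 93.3 RPKM, was 3.11 times the larger of the differences within a group. The mean was 251 ± 14.3 RPKM in the controls and 369.6 ± 21.2 RPKM after exposure (SD, n = 2 each), a ratio that ran from 1.36 to 1.60 over the 4 pairings of a chemokine with a control library. The difference on the log2(RPKM + 1) scale was 0.56 ± 0.06 (SE; limma, adjusted p = 0.000189). Ccl2 was counted on 9450 to 14778 reads per library, if its length is the smallest that gives whole reads, 1135 bases against 1138 annotated. The widest exact Poisson interval (95%, counting error only) of a Ccl2 level ran from 348 to 361 RPKM, in chemokine 1.

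Ccl7, the neighbour of Ccl2, had 101 and 104 RPKM in the controls and 134 and 159 RPKM in chemokine 1 and 2. The chemokine libraries were above both controls and also apart from each other, by 24.7 RPKM, against 2.77 RPKM between the controls. Its mean went up from 102 ± 1.96 RPKM to 147 ± 17.5 RPKM (SD, n = 2 each), by 0.51 ± 0.07 on the log2 scale (SE; limma, adjusted p = 0.000412). Its annotated exon length of 801 bases was the reference from which the library totals were recovered, so it gives whole reads by construction. These were 2580 and 3067 in the controls and 3078 and 4314 after exposure.

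Cxcl16, the membrane-bound ligand of Cxcr6, was the lowest of the 4, with 8.34 and 9.08 RPKM in the controls and 10.94 and 10.89 RPKM after exposure. The chemokine libraries were nearly equal and lay 1.81 RPKM above the higher control. The mean level was 8.71 ± 0.52 RPKM without and 10.9 ± 0.0309 RPKM with chemokine (SD, n = 2 each), a log2 rise of 0.30 ± 0.06 (SE; limma, adjusted p = 0.00108). With 803 and 1011 exact reads in the controls and 945 and 1114 after exposure, the Poisson interval (95%) of control 2 reached 9.66 RPKM and that of chemokine 1 began at 10.2 RPKM.

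Pf4, the heparin-binding platelet chemokine, was the highest of the 4, with 356 and 365 RPKM in the controls and 406 and 475 RPKM in chemokine 1 and 2. The groups did not overlap, but the gap of 41.0 RPKM between them was smaller than the 68.7 RPKM between the chemokine libraries. Mean levels were 361 ± 6.11 RPKM and 440 ± 48.5 RPKM (SD, n = 2 each), and the log2 rise was 0.28 ± 0.07 (SE; limma, adjusted p = 0.00402). Without chemokine 2 this change was 0.17, smaller by over 1.5 times, and without chemokine 1 it was 0.40, and both still passed.

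**Figure D1:**
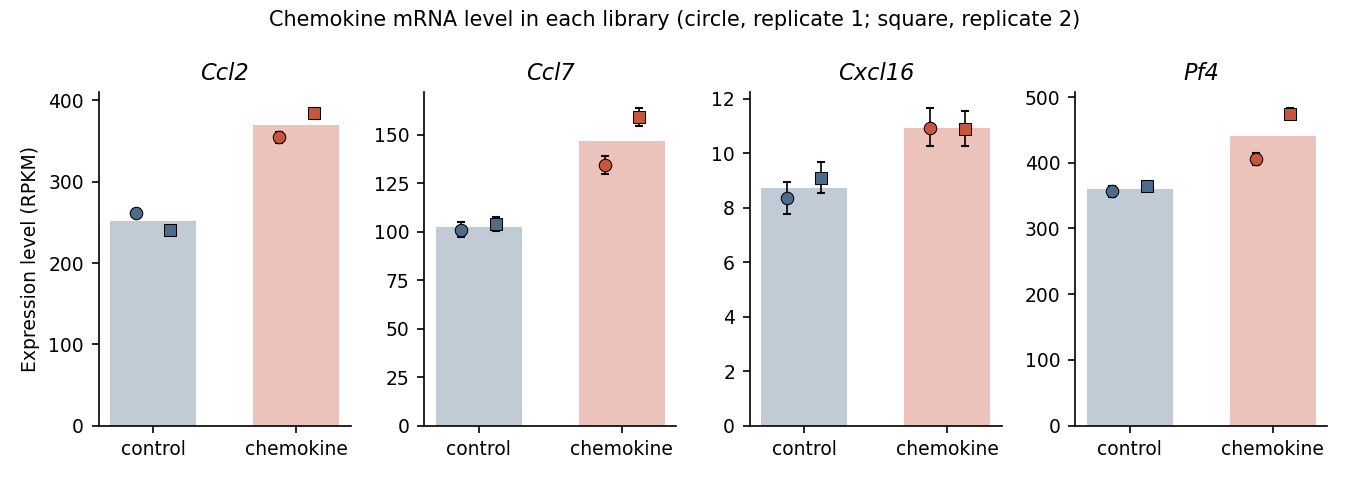
Expression level (RPKM, axis from 0) of Ccl2, Ccl7, Cxcl16 and Pf4 in the 2 control and 2 chemokine libraries. Bars are group means, circles and squares are replicates 1 and 2, and error bars are exact Poisson 95% intervals of the read number. For Ccl2 and Pf4 the read number assumes the smallest length that gives whole reads, 1135 and 700 bases against 1138 and 721 annotated. All chemokine libraries lie above all controls, and the chemokine libraries of Ccl7 and Pf4 lie further apart than their controls.

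Requiring a size separated the genes where the plain test could not. In limma's treat test for a fold of at least 1.2, 97 of the 2956 tested genes passed upward, which is 3.28%, and 310 passed downward. Ccl2 (adjusted p = 0.0103) and Ccl7 (adjusted p = 0.0412) were among them, while Cxcl16 (adjusted p = 0.496) and Pf4 (adjusted p = 0.604) were not, by limma. The Ccl2 call was lost without control 2 (limma, adjusted p = 0.0789) and the Ccl7 call without control 1 (limma, adjusted p = 0.0822), and Pf4 passed without chemokine 1 (limma, adjusted p = 0.0142). The Ccl7 call was also lost with all libraries kept, in 2 other settings. These were a pseudocount of 5 RPKM in place of 1 (limma treat, adjusted p = 0.109) and a required mean of at least 10 RPKM (limma treat, adjusted p = 0.0559). Exact permutation of 2 against 2 libraries gave a two-sided p of 0.333 for each of the 4 genes, the smallest that this design allows.

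Ratios between the genes within a library do not depend on the library total. Ccl2 exceeded Ccl7 by a factor of 2.58 and 2.32 in the controls and 2.64 and 2.42 in the chemokine libraries. These ranges overlap, with a log2 difference of 0.04 against SDs of 0.11 and 0.09. The ratio of Pf4 to Ccl2, in contrast, was 1.36 and 1.51 in the controls and 1.14 and 1.23 after exposure, without overlap. Pf4 over Ccl7 was 3.52 and 3.51 in the controls against 3.02 and 2.98. Ratios of Ccl2 to Cxcl16 and of Ccl7 to Cxcl16 also did not overlap between groups, while those of Cxcl16 to Pf4 did. Each ratio without overlap had an exact permutation p of 0.333, the smallest that this design allows. Pairs of other listed genes were not examined, so these ratios are a description only. In RPKM, the summed level of the 4 genes was 727 and 719 in the controls and 906 and 1029 after exposure. Ccl2 accounted for 118 RPKM of the rise in the mean, Pf4 for 79.7, Ccl7 for 44.2 and Cxcl16 for 2.2.

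**Figure D2:**
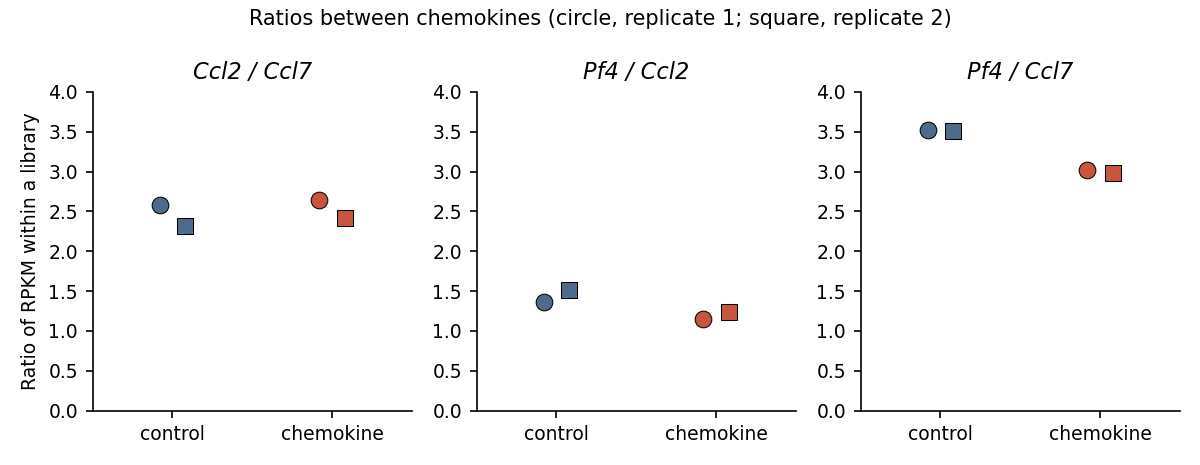
Ratio of RPKM values within each library for Ccl2 over Ccl7, Pf4 over Ccl2 and Pf4 over Ccl7 (vertical axis from 0, circles replicate 1, squares replicate 2). The first ratio overlaps between control and chemokine libraries, from 2.32 to 2.64, and the others are lower in both chemokine libraries.

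Gene length went with direction in the deposited list. Genes with an authors' fold above 1 had a median exon length of 2310 bases and those below 1 had 8346 bases. Of the 4 genes, Pf4 has 721 annotated exon bases, Ccl7 801, Ccl2 1138 and Cxcl16 3021. Among all listed genes of at most 3021 bases, a fold above 1 was given for 96.3% of 881 in the authors' deposited table, against 19.8% of the 2095 longer ones. Direction alone therefore sets none of the 4 genes apart from other listed genes of short length.

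**Figure D3:**
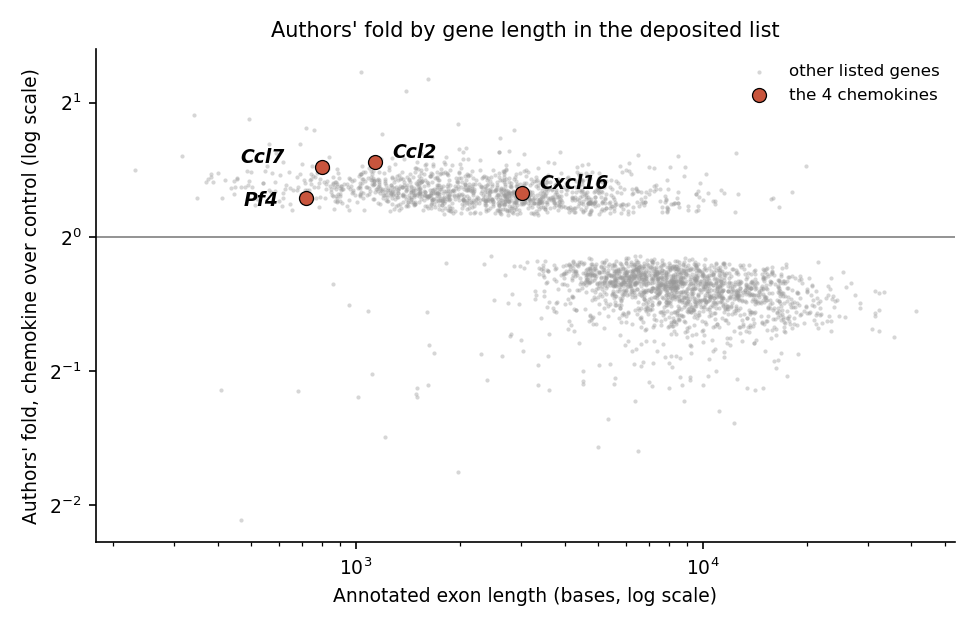
Authors' fold (chemokine over control, log scale) against annotated exon length (bases, log scale) for the listed genes, with Ccl2, Ccl7, Cxcl16 and Pf4 marked. Most short genes lie above 1 and most long genes below it, and the 4 chemokines lie in the short range, from 721 to 3021 bases.

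A regression that removed the trend of length and GC content from each library set each gene against listed genes of like length. Ccl2 then had a log2 change of 0.19 ± 0.04 (SE, limma adjusted p = 0.015) and Cxcl16 one of 0.18 ± 0.05 (SE, limma adjusted p = 0.0221), and both passed. Ccl7, at 0.14 ± 0.05 (SE), did not (limma adjusted p = 0.0554), and Pf4 turned to -0.097 ± 0.05 (SE) without passing (limma adjusted p = 0.137). In this fit 22.5% of all tested genes passed upward, and none of the 4 passed at a fold of 1.2. The part of length in the rise of these genes was not tested beyond this fit, which rests on a selected list.

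**Figure D4:**
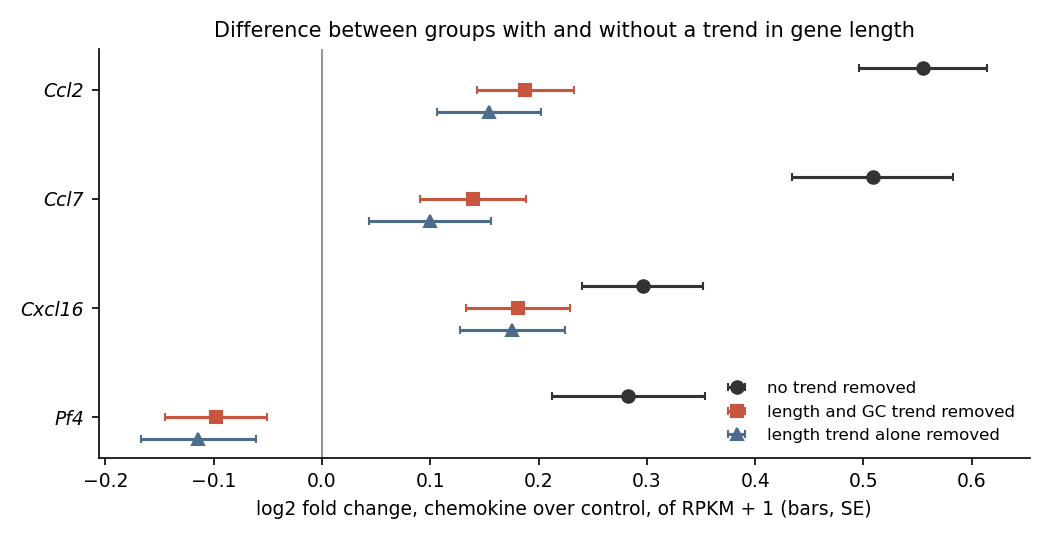
Log2 fold change of RPKM + 1, chemokine over control, with its SE (horizontal axis), for Ccl2, Ccl7, Cxcl16 and Pf4 without removal of a trend, after removal of the joint length and GC trend, and with that of length alone removed. All values shrink with removal, Cxcl16 least, and Pf4 falls below 0, to -0.097 and -0.11.

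Some listed genes followed nearly the same course over the 4 libraries. Likeness was measured as the distance between log2(RPKM + 1) values centred on each gene's mean, over 4 libraries, and is a description only. Ccl7 was most like Mt1, a metallothionein, at a distance of 0.0256, followed by 1500011K16Rik (0.0334) and Ndufa2, a subunit of respiratory complex I (0.0516). Mt1 had 297 and 309 RPKM in the controls and 389.5 and 466 RPKM after exposure, the same split between the chemokine libraries as in Ccl7. Ccl2 was nearest to 1810032O08Rik (0.0506), Gm9844 (0.0751) and Ccdc101 (0.076), and Ccl7 was only its 64th nearest gene (0.148). Cxcl16 was nearest to Exosc2, a subunit of the RNA exosome (0.0109), Nudc (0.0162) and the RNA helicase Ddx47 (0.0194). Pf4 was nearest to Cep89 (0.00959), the ribosomal pseudogene Rpl27-ps3 (0.0102) and the ribosomal protein gene Rps27l (0.0159). None of the 4 genes was among the 3 nearest of another.

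The promoter window of Pf4 is shown because its level was the highest of the 4 and its direction turned once the length trend was removed. It was the 1 gene of the 4 matched in the RefSeq promoter table used here (GRCm38.p6, chr5:90772185-90772484, plus strand, 250 bases before to 50 after the start site). Capitals mark matches to the ETS site AGGAAG and the GATA site AGATAA, motifs of the factor families that drive Pf4 in megakaryocytes.
Pf4: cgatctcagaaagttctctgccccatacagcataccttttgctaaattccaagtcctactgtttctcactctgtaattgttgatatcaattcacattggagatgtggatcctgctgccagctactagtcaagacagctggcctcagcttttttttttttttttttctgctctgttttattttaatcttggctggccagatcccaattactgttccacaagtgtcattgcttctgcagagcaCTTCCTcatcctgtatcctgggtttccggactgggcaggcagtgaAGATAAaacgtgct
Both strands were searched, and these motifs do not overlap here. AGGAAG, on the minus strand and beginning 9 bases before the start site, is found in 35.4% of the 32851 windows in the table, and AGATAA, on the plus strand from base 37 after the start site, in 11.2%. TATAAA (13.6% of windows), the AP-1 pattern TGANTCA (7.81%) and the GC box GGGCGG (35.7%) had no match in it.

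Other chemokines and receptors were few in the list. Of 33 other chemokine ligands looked for, 3 were tested and rose, all of them Cxcr2 ligands: Cxcl1, Cxcl2 and Cxcl5. Of all tested genes 42.8% rose. Cxcl1 went from 67.9 ± 2.66 RPKM to 95.7 ± 3.23 RPKM (SD, n = 2 each), between Ccl7 and Cxcl16 in size of change, and Cxcl5 from 35.4 ± 1.81 to 42.8 ± 1.3 RPKM. Of 22 receptors 1 was tested, Cxcr2, which rose by 0.42 ± 0.07 on the log2 scale (SE). With the length and GC trend removed Cxcl1 (0.23 ± 0.06) and Cxcr2 (0.32 ± 0.05) passed, while Cxcl2 (0.12 ± 0.04) and Cxcl5 (0.016 ± 0.04) did not, with limma adjusted p of 0.0223, 0.0039, 0.0554 and 0.788 (SE). The receptors of the 4 genes, Ccr2 and Cxcr6 included, and the chemokine genes beside Ccl2 and Ccl7 on chromosome 11, Ccl11, Ccl12, Ccl8 and Ccl1, were not analysed here.

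Genes that act on these chemokines or on their mRNA were mixed. Of 16 such genes 4 were tested, 3 rose and 1 fell, while 42.8% of all tested genes rose, and none passed at a fold of 1.2. Adam10, a protease that sheds Cxcl16 from the membrane, fell from 26.5 ± 0.333 RPKM to 23 ± 0.975 RPKM (SD, n = 2 each), a log2 change of -0.20 ± 0.05 (SE). Mmp3, a metalloproteinase, rose from 55.2 ± 2.88 RPKM to 67.5 ± 2.58 RPKM. Zfp36 and Zc3h12a, which bind and destabilise inflammatory mRNAs, rose, each by 0.21 on the log2 scale (SE 0.05). With the length and GC trend removed only Zfp36 of these 4 passed (limma adjusted p = 0.0361).

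Of 27 transcription factors and NF-kB regulators 10 were tested, 5 rose and 5 fell, while 42.8% of all tested genes rose. Cebpb, a leucine zipper factor of inflammatory genes, rose from 117 ± 0.116 RPKM to 172 ± 7.48 RPKM and Jund, a subunit of AP-1, from 20.2 ± 0.539 to 29.4 ± 0.585 RPKM (SD, n = 2 each), and both passed at a fold of 1.2. Sp1, a factor that binds GC boxes, fell from 9.04 ± 0.251 RPKM to 6.11 ± 0.152 RPKM and also passed at that fold. Of the 2956 tested genes 310 passed at that fold downward and 97 upward. Nr3c1, the glucocorticoid receptor that represses Ccl2, fell from 11.5 ± 0.165 RPKM to 8.74 ± 0.161 RPKM. Junb rose by 0.37 ± 0.07 and Fosl2 fell by 0.35 on the log2 scale (SE 0.06). With the length and GC trend removed Sp1 alone of the 10 passed (-0.21 ± 0.04, SE, limma adjusted p = 0.00663).

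Heparan sulfate holds chemokines on the cell surface. Of 18 proteoglycan genes and enzymes 3 were tested, 1 rose and 2 fell, while 42.8% of all tested genes rose. Ndst1, which sulfates heparan sulfate, fell from 12.4 ± 0.0406 RPKM to 7.61 ± 0.611 RPKM (SD, n = 2 each), a log2 change of -0.64 ± 0.06 (SE, limma adjusted p = 0.000157). It passed at a fold of 1.2, as 310 of the 2956 tested genes did downward, and also with the trend removed, at -0.39 ± 0.04 (SE). Vcan, versican, fell from 22.9 ± 0.114 RPKM to 16.2 ± 0.969 RPKM, while Dcn, decorin, rose from 108 ± 0.144 RPKM to 122 ± 1.29 RPKM. Vcan also passed at a fold of 1.2 but not with the trend removed (-0.069, limma adjusted p = 0.176), while the rise of Dcn went from 0.18 to 0.37 on the log2 scale and passed. Of 14 other signals that recruit or sustain mononuclear cells 7 were tested, 5 rose and 2 fell, while 42.8% of all tested genes rose. Tnfsf15, a TNF superfamily cytokine, fell by 1.03 on the log2 scale, and Saa3, an acute phase protein, rose by 0.73. These 2 alone of the 7 passed at a fold of 1.2, where 310 of the 2956 tested genes passed downward and 97 upward. Mif, macrophage migration inhibitory factor, rose from 996 ± 9.87 RPKM to 1305 ± 60.7 RPKM (SD, n = 2 each) and Spp1, osteopontin, from 1281 ± 27.8 to 1486 ± 53.3 RPKM. Il6, an inflammatory cytokine, rose by 0.32 and the galectin Lgals3 by 0.23 on the log2 scale. With the trend removed Tnfsf15 (-1.09), Saa3 (0.57) and Il6 (0.17) passed by limma, while Mif, Spp1 and Lgals3 turned without passing. Csf1, the growth factor of macrophages, named after its values were seen, fell from 583 ± 4.9 RPKM to 517 ± 11.6 RPKM (SD, n = 2 each) and did not pass with the trend removed.

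Markers of other cells are given because macrophages and megakaryocytes also make Pf4, and in bulk RNA fewer cells of a type and less RNA per cell cannot be told apart. Of 10 fibroblast markers 6 were tested, 5 rose and 1 fell, while 42.8% of all tested genes rose. Among the 5 were Col1a1 and Vim, at 474 ± 3.35 and 772 ± 15.2 RPKM in the controls (SD, n = 2). Fn1, fibronectin, fell from 293 ± 7.71 RPKM to 190 ± 12.7 RPKM (SD, n = 2 each). It alone of the 6 passed at a fold of 1.2, as 310 of the 2956 tested genes did downward. The summed level of the 6 was 1790 and 1781 RPKM in the controls and 1899 and 1903 RPKM after exposure. Of 19 macrophage and monocyte markers 3 were tested, with a summed level of 26.2 and 25.9 RPKM in the controls and 22.9 and 22.9 RPKM after exposure. Of these Itgam and Mrc1 fell, by 0.46 and 0.33 on the log2 scale, and Ear2 rose by 0.66. The 9 megakaryocyte, 9 neutrophil and 9 T or NK cell markers are not in the list and were not analysed here. Of 10 endothelial markers 2 were tested and rose, Pecam1 and Sox18, with a summed level of 3.26 and 3.18 RPKM in the controls against 5.43 and 6.16 RPKM. Of 9 epithelial markers 2 are in the list, and 1 of them, Krt18, was tested and rose. Krt18 had 7.29 and 7.07 RPKM in the controls and 9.69 and 10.1 RPKM after exposure. The summed level of the 2 was 8.47 and 8.31 RPKM against 10.1 and 10.5 RPKM. The other marker, which averaged under 1 RPKM and was not tested, was thus lower in both chemokine libraries. Of 7 smooth muscle and mesothelial markers 2 were tested, of which Cnn1 rose and Myh11 fell. With the length and GC trend removed Krt18, Cnn1 and Myh11 did not pass (limma adjusted p = 0.398, 0.589 and 0.152). The other tested markers kept their direction and passed. The part of these cells in the levels of the 4 chemokines was not tested.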

How the data were processed

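TopHat2 2.0.7, DESeq2 and build GRCm38 (mm10) are named, with no role, in the submitters' processing notes. The sources used here give no read counter, annotation release, strand setting or rule for keeping genes. In the authors' table there is 1 RPKM value per gene and library as deposited, a unit worked out from the values, since the header names none. It also holds the authors' fold, a ratio of chemokine over control. Library totals were recovered from ratios of RPKM values to that of Ccl7, the reference, taken at its annotated exon length. With these totals 1176 genes give whole reads (tolerance 0.0001) at their annotated exon length, Cxcl16 among them. Ccl7, also counted there, does so by construction. Precision is limited by 2 libraries per group.

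The 4 members and the gene lists were chosen with earlier results of these data known. Limma 3.58.1 (R 4.3.3) tested log2(RPKM + 1) with a mean-variance trend over the 2956 genes that averaged 1 RPKM or more, with Benjamini-Hochberg adjustment over all of them, a threshold of 0.05 and two-sided tests, and its treat test required a fold of 1.2. Such log2 changes understate the change of low genes. On simulated data with the same design and 2953 genes, the fit called 100% of 198 genes changed 1.5-fold and 14 of 2755 unchanged genes. The simulation had no length trend and no selection of genes, and its spread was set, not taken from these libraries. Its fold was also larger than that of any of the 4 chemokines. It checks that the fit runs as intended and does not measure power or false calls here. Positions, exon lengths (2976 of 2979 genes matched) and GC content of the longest transcript come from GENCODE M21. Named genes are the 4 members, the 3 nearest in course for each, up to 6 per list by size of change (Csf1 is outside this rule), the Cxcr2 axis and listed markers.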

Additional observations from a re-analysis of the deposited data

How the results depend on the processing

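Apart from removal of the length trend, Ccl2, Ccl7 and Pf4 kept their direction in 11 alternatives each and Cxcl16 in 10. The log2 changes were 0.50 to 0.66, 0.39 to 0.63, 0.17 to 0.40 and 0.22 to 0.40. Those tested also passed in each of these alternatives that kept all libraries, but so did nearly every listed gene. With either other pseudocount 2956 of 2956 tested genes passed, and with median centring 2790 of 2956. Passing there sets none of the 4 genes apart. Cxcl16 is not tested at a mean of at least 10 RPKM. Without each library in turn the ranges were 0.50 to 0.61 for Ccl2, 0.39 to 0.63 for Ccl7, 0.24 to 0.35 for Cxcl16 and 0.17 to 0.40 for Pf4, while 2791 to 2956 genes of the table and 1 to 3 of the 4 chemokines at a fold of 1.2 passed. Removal of the length and GC trend gave 0.14 for Ccl7, not past the threshold, and -0.097 for Pf4. Removal of the length trend alone, chosen after seeing the data, gave 0.0999 and -0.11. These removals left 1335 and 1276 genes of the table called and 0 and 0 chemokines at a fold of 1.2 (by limma treat; at an unadjusted p under 0.05 also 0). A mean of at least 10 RPKM left 1789 genes called, every gene tested, and 1 chemokine, Ccl2, at that fold. A pseudocount of 5 also left Ccl2 alone at that fold, so Ccl7 was lost in both. Upward calls at that fold ranged from 18 with a pseudocount of 5 to 514 with median centring, against 97. Median centring raised the median change of all genes, and each of the 4, by 0.10. The fit with replicate numbers as a block called 2956 genes, with 155 rises at a fold of 1.2, and 2 chemokines at that fold. Deviations of replicate 1 from the group mean correlated at r = -0.16 between groups over 2956 genes. With 2 libraries per group this value cannot show whether the numbers mark pairs. A block with crossed numbers, chosen after seeing the data, likewise called 2956 genes. Counting error bears most on Cxcl16, which had as few as 803 reads in a library.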
